A study of Mus musculus with 6 samples.

Results

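Immediate early genes are transcribed within minutes of a stimulus, without new protein synthesis, and 10 of them were followed here in mouse bile duct epithelium: Fos, Fosb, Fosl1, Jun, Junb, Egr1, Egr2, Egr3, Atf3 and Phlda1. The 10 were chosen with earlier results of these data known. Their probes were taken by name, as all non-control probes whose gene name in the array files is one of these 10. This gave 15 probes of 56605 on the array, for 10 of 37008 named genes. Of the 10, 9 are transcription factors, and Phlda1 codes for a protein with a pleckstrin homology-like domain that is not a transcription factor, so the set is called immediate early genes below.

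The arrays measured total RNA of common bile duct epithelium from C57BL/6 mice labelled iFGF10. The DOX+ group, 3 samples, drank 0.02% doxycycline for 5 days, and the DOX- group, 3 samples, drank water alone for 5 days. FGF10 is a secreted growth factor that signals through FGFR2 in epithelia, and the design text calls DOX+ mice FGF10 overexpressing. Ages are not given in the sources used here, nor is the promoter or cell type that drives the construct. The DOX- samples carry a second name that begins with WT and holds a pair of numbers, so the labels do not settle whether these controls carried the construct or were pools. Mice without the construct that drank doxycycline were not analysed here, so the drug and the induced gene cannot be told apart.

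The transcription factors of the set fall into 3 families. FOS and JUN proteins are basic leucine zipper factors that pair to form AP-1, which binds the palindrome TGANTCA; FOS proteins need a JUN partner, whereas JUN proteins can pair with each other. ATF3 is a related zipper protein known as a stress-induced repressor, and EGR proteins are zinc finger factors that bind GC-rich sites. Growth factor receptors reach these genes through RAS, RAF, MEK and ERK, which switch on ELK factors bound with SRF at CArG boxes, and cAMP or stress signals reach them through CREB and ATF factors at CRE sites. The RNAs are short-lived, so their levels follow recent signalling.

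The promoter sequences that receive these signals are shown for the 6 members that RefSeq's promoter table for GRCm38.p6 held. Egr1, Egr3, Fosl1 and Phlda1 were not among them. For Egr2 1 of its 5 windows is shown, the first of those with the most matches to TGACG before the start. Each line gives the 120 bases before a transcription start, 5′ to 3′ on the gene's strand, and capitals mark matches to the motifs searched: the short CRE core TGACG on either strand, the CRE-like site TGACATCA, the EGR site GCGNGGGCG and the CArG box.
Fos, chr12:85473770-85473889, plus strand: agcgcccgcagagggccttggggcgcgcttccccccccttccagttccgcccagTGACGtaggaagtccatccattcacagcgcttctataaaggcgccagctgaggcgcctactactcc
Fosb, chr7:19310046-19310165, minus strand: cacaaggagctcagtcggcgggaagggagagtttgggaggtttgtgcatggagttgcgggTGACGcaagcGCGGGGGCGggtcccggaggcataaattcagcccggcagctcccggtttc
Jun, chr4:95052223-95052342, minus strand: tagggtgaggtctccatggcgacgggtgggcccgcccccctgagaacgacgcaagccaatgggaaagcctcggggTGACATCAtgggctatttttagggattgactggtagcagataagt
Junb, chr8:84978749-84978868, minus strand: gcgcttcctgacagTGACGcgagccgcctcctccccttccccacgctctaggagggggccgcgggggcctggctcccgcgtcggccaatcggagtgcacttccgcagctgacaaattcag
Egr2, chr10:67537749-67537868, plus strand: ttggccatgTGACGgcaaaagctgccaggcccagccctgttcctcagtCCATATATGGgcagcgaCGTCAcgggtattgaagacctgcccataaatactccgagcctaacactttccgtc
Atf3, chr1:191183334-191183453, minus strand: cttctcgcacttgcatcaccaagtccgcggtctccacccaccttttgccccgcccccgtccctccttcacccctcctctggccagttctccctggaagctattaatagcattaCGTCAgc

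The CRE core stood in 5 of these 6 promoters, with Egr2 counted through a window chosen for that match. Jun held the CRE-like TGACATCA instead, with its first base at -45 from the start. Of all 32851 promoter windows of 300 bases in the table, searched on both strands, 20.8% held TGACG and 3.62% held TGACATCA. The CArG box of Egr2 began at -72, and 1.63% of all windows held one. The EGR site of Fosb began at -50, and 5.55% of windows held one. No window of these 6 genes held the AP-1 palindrome TGANTCA, which 7.81% of all windows held. The serum response element of Fos is known to lie further upstream than these bases. A match is a match of letters only, and the CRE-like motif was chosen after the Jun sequence was seen.

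One slide, with a single scan date, held the 6 arrays, with 59305 non-control spots each, of which 55.93% to 61.9% were well above background and 0 were saturated. Levels below are log2 ratios of the processed intensity to the 75th percentile of its array, which was 663.1 to 902.78 intensity units. Of 20737 genes tested with limma, 8 passed an adjusted p of 0.05, which is 0.0386% of them, and none of the 10 immediate early genes was among the 8. The 3 Fgf10 probes stayed at background on each of the 6 arrays, so the induced gene gave no check of the labels. Epithelial markers were measured on every array: Krt19, a duct keratin, averaged 7.11 in DOX+ and 7.38 in DOX-, and Epcam, an epithelial adhesion molecule, 2.37 and 2.57. Other genes of that list, chosen after their values were seen, were lower in DOX+ without overlap: Cdh1, which codes for E-cadherin (-2.01, SE 0.37), Slc10a2, a bile acid transporter gene (-1.74, SE 0.31), and Krt7, a duct keratin gene (-1.01, SE 0.19), with limma adjusted p from 0.17 to 0.171.

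Of the 10 genes, 8 were well above background on all 6 arrays and were tested, and 7 of these 8 had a lower mean in DOX+ than in DOX-. In the fit over all genes 51.2% had a lower mean, and the median difference was -0.01, against -0.83 over the 8 tested members. Egr1, Phlda1, Atf3 and Fos had differences of -1.59, -1.27, -1.26 and -1.22, each more than 2-fold, a size reached in that direction by 2.46% of all genes tested. The groups did not overlap for 2 of the 8, Fos and Phlda1, both lower in DOX+, whereas 10.6% of all genes tested were lower without overlap, 10.4% were higher without overlap and 21% were apart in either direction. None passed limma's adjusted p, and 2 of 8, again Fos and Phlda1, had an unadjusted p below 0.05, against 13.3% of all genes in either direction and 6.17% with a lower mean. Because the tissue was measured in bulk, fewer cells of a type and less RNA per cell cannot be told apart.

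**Figure D1:**
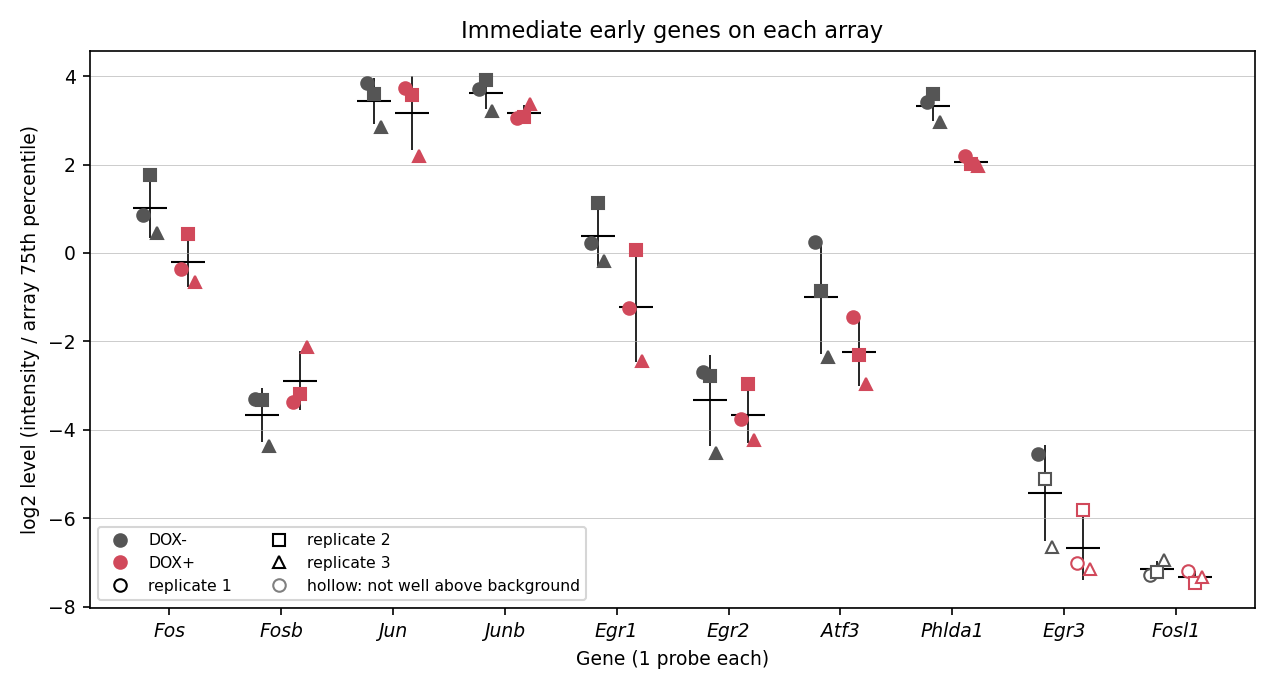
Level of each tested gene on each array (y axis, log2 of intensity relative to the array's 75th percentile), for the 10 genes, 1 probe each, with 3 DOX- and 3 DOX+ arrays, a horizontal bar for each group mean, a vertical line for its SD and hollow points where the probe was not well above background. Of the 8 genes tested, the groups are apart for Phlda1, touch for Fos, where the nearest arrays are 0.46 and 0.44, and overlap for the other 6.

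Fos codes for the founding FOS protein. Its probe, on mm9 chr12:86818118-86818177, plus strand, read -0.36, 0.44 and -0.66 in DOX+ replicates 1, 2 and 3, and 0.85, 1.77 and 0.46 in DOX- replicates 1, 2 and 3. The groups did not overlap, but DOX+ replicate 2 and DOX- replicate 3 were only 0.02 apart. The means were -0.20 ± 0.57 in DOX+ and 1.02 ± 0.67 in DOX- (SD, n = 3 each). The difference of -1.22 (SE 0.42, 95% confidence interval -2.24 to -0.20) is 2.33-fold lower in DOX+, with a limma adjusted p of 0.32. The gap was -0.02 with quantile normalization and in the authors' own processed values, and -0.01 with normexp background correction, so under these the groups overlapped.

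Fosb, which makes a FOS protein and a truncated form of it, was the one tested member with a higher mean in DOX+. The probe at mm9 chr7:19888168-19888227, minus strand, read -3.37, -3.19 and -2.12 in DOX+ and -3.29, -3.32 and -4.36 in DOX-. The highest value was DOX+ replicate 3 and the lowest DOX- replicate 3, and the other 4 arrays lay within -3.37 to -3.19. The difference was 0.76 (SE 0.43, 95% confidence interval -0.29 to 1.82; limma adjusted p = 0.488), and without DOX+ replicate 3 it was 0.38. A second Fosb probe, 1978 bases upstream in a gene of 7423 bases, stayed at background throughout.

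Fosl1, which codes for FRA1, never rose above background, at 4.70 to 5.92 intensity units, and on all 6 arrays the scanner software had put a surrogate in place of the measured signal. Its level was therefore not detectable here in either group.

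Jun codes for the c-JUN protein, a JUN partner with which FOS proteins can pair. It read 3.72, 3.57 and 2.19 in DOX+ and 3.84, 3.60 and 2.84 in DOX-, from a probe at mm9 chr4:94716928-94716987, minus strand. The third replicate was the lowest in both groups, and the groups overlapped widely. The difference was -0.27 (SE 0.47, 95% confidence interval -1.41 to 0.87; limma adjusted p = 0.837), and without DOX+ replicate 3 its sign turned, to 0.21.

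Junb codes for a JUN protein that is often a weaker activator than c-JUN. Its bright probe, at mm9 chr8:87500843-87500902, minus strand, read 3.06, 3.07 and 3.37 in DOX+ and 3.71, 3.91 and 3.20 in DOX-. DOX- replicates 1 and 2 were above every DOX+ array, and DOX- replicate 3 was below DOX+ replicate 3. The difference was -0.44 (SE 0.22, 95% confidence interval -0.96 to 0.08; limma adjusted p = 0.434), and without DOX- replicate 3 the groups were apart.

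The array carried 3 probes for Junb, and they did not read alike. The second probe is printed because its position, 1038 bases upstream of the bright one, sets it within the transcript rather than near its end.
Junb probe at mm9 chr8:87501881-87501940, minus strand: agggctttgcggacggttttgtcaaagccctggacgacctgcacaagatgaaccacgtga
It read -3.01, -2.70 and -2.29 in DOX+ and -2.86, -2.26 and -3.02 in DOX-, with a difference of 0.05 (SE 0.27, 95% confidence interval -0.60 to 0.70; limma adjusted p = 0.963 with every probe tested). Its interval and that of the bright probe overlapped, and the difference between the probes was not tested. The third probe, named for a cDNA, began 4208 bases downstream of the bright one, while RefSeq gives Junb a length of 1840 bases, and it stayed at background throughout.

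Egr1, the most studied EGR factor and a classical target of ERK signalling, had the most negative difference of the 8. It read -1.24, 0.06 and -2.44 in DOX+ and 0.22, 1.13 and -0.19 in DOX-, from a probe at mm9 chr18:35024395-35024454, plus strand. DOX+ replicate 2, at 0.06, was above DOX- replicate 3, so the groups overlapped by that pair of arrays. The means were -1.21 ± 1.25 and 0.39 ± 0.68 (SD, n = 3 each), and the difference of -1.59 (SE 0.67, 95% confidence interval -3.21 to 0.03) had a limma adjusted p of 0.379. It was -2.23 without DOX+ replicate 2 and -0.98 without DOX+ replicate 3.

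Egr2, which is also known for its part in Schwann cell myelination, read -3.76, -2.97 and -4.23 in DOX+ and -2.69, -2.77 and -4.52 in DOX-. The lowest array of all was DOX- replicate 3, and the difference was -0.33 (SE 0.57, 95% confidence interval -1.72 to 1.06; limma adjusted p = 0.835). It was -0.92 without DOX- replicate 3 and -0.01 without DOX- replicate 1. The probe lies at mm9 chr10:67004758-67004817, plus strand.

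Egr3 had 3 probes, and 2 of them stayed at background on every array. The third passed that mark on DOX- replicate 1 only, with intensities of 5.50, 14.65 and 6.40 in DOX+ and 35.12, 25.61 and 6.67 in DOX-. The brighter arrays were DOX- replicates 1 and 2, and no fold is given, because the gene was not measured on the other arrays.

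Atf3 read -1.45, -2.31 and -2.96 in DOX+ and 0.24, -0.85 and -2.35 in DOX-, from a probe at mm9 chr1:192994547-192994606, minus strand. DOX- replicates 1 and 2 were above every DOX+ array, but DOX- replicate 3 lay among them. The means were -2.24 ± 0.76 and -0.99 ± 1.30 (SD, n = 3 each), and the difference was -1.26 (SE 0.71, 95% confidence interval -2.97 to 0.46; limma adjusted p = 0.485). It was -1.94 without DOX- replicate 3 and -0.64 without DOX- replicate 1.

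Phlda1, induced by growth factors and also proposed as an epithelial progenitor marker in the intestine, was the member with the tightest replicates. It read 2.19, 2.02 and 1.96 in DOX+ and 3.41, 3.60 and 2.96 in DOX-, from a probe at mm9 chr10:110945310-110945369, plus strand. Every DOX+ array was below every DOX- array, with a gap of 0.78 between the nearest pair. The means were 2.06 ± 0.12 and 3.32 ± 0.33 (SD, n = 3 each). The difference of -1.27 (SE 0.19, 95% confidence interval -1.74 to -0.80) is 2.41-fold lower in DOX+, with an unadjusted limma p of 0.000513, place 75 among 20737 genes, and an adjusted p of 0.142. Its adjusted p lay between 0.0834 and 0.567 over the 15 alternatives, and its difference between -1.45 and -1.13.

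**Figure D2:**
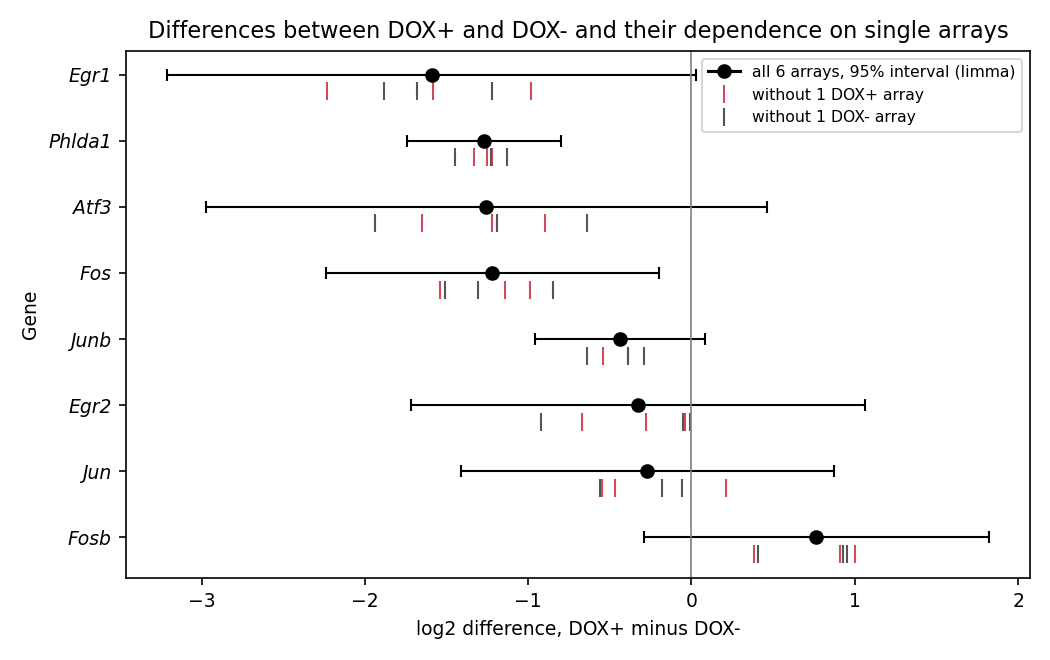
Difference of each tested gene, DOX+ minus DOX- on the log2 scale (x axis), with its 95% confidence interval from limma, and the differences after leaving out each array. Only the intervals of Fos and Phlda1 lie wholly below 0, and the Jun difference turns sign without DOX+ replicate 3.

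The spread between arrays of 1 group was large for most of the set. Of the 8 tested genes, 6 had a residual SD above the 88th percentile of all genes tested, and Junb and Phlda1, at the 62.1 and 53.5 percentiles, were the other two. The median residual SD over all genes was 0.23. The DOX- arrays differed among themselves in 1 direction: replicate 3 was the lowest of the 3 for 8 of 8 genes. DOX- replicate 3 was also the dimmest array, with 55.93% of spots well above background and a 75th percentile of 663.1 intensity units. On the other arrays these were 59.39% to 61.9% and 708.56 to 902.78, and the part of array brightness in the low values was not tested. Within DOX+, replicate 3 was the lowest for 6 of 8. Taking each gene's deviation from its mean over the 6 arrays, the median deviation was 0.59, 0.74 and -0.32 on DOX- replicates 1, 2 and 3, and -0.30, 0.05 and -0.91 on DOX+ replicates 1, 2 and 3. DOX- replicate 3 was thus below DOX+ replicates 1 and 2 by this measure. Without it 6 of 8 genes were apart, all lower in DOX+, while 32.6% of all genes tested were apart in either direction in that smaller comparison. As this array was the lowest DOX- array for each of the 8, leaving it out could only raise their lowest DOX- level. The count of 6 is therefore no support for a difference. Leaving out any other single array left 2 or 3 of the 8 apart.

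**Figure D3:**
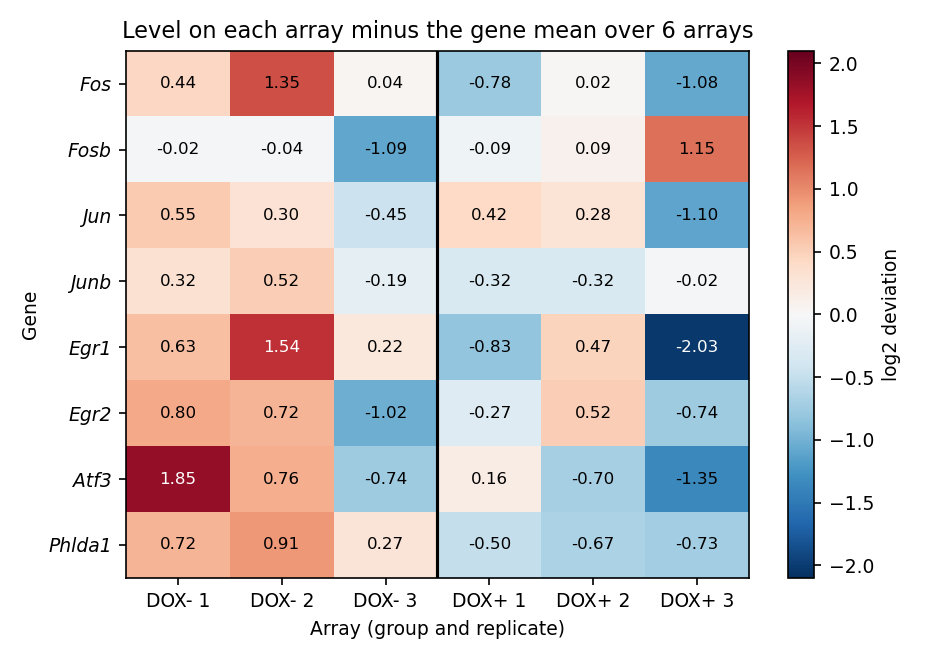
Level of each tested gene on each array minus the gene's mean over the 6 arrays (log2, colour and printed value), DOX- arrays at the left and DOX+ arrays at the right. DOX- replicates 1 and 2 are above 0 for all genes but Fosb, while DOX- replicate 3 and DOX+ replicate 3 hold most of the low values.

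Markers of other cells also moved between these arrays, and their part in the differences was not tested. Summed over the list's genes, in multiples of the array's 75th percentile, the neutrophil markers (5 of 7 higher in DOX+; 3 of the 5 measured on all 6 arrays, median 0.08) came to 152, 158 and 92.9 on DOX- replicates 1, 2 and 3 and to 98.6, 98.0 and 116 in DOX+; the 8 immediate early genes came to 42.5, 45.7 and 26.7 and to 27.8, 27.2 and 20.0. Both sums were thus highest on DOX- replicates 1 and 2. Most of the neutrophil sum came from Csf3r, which was level, at 6.48 to 6.67 on the 6 arrays. S100a9 read 5.52, 5.55 and 0.93 in DOX- and 1.87, -1.79 and 3.25 in DOX+, and it and S100a8 (-3.06, SE 1.63) were the only members of the list with a lower mean in DOX+. Ly6g, a neutrophil surface protein gene chosen after its values were seen, was higher in DOX+ without overlap, at 1.21 (SE 0.33; limma adjusted p = 0.252). The smooth muscle sum (6 of 9 higher, median 0.23) was 316 on DOX- replicate 1 against 61.4 to 183 on the other arrays. That array gave the highest Atf3, Jun and Egr2 values. But DOX- replicate 2, with the lowest smooth muscle sum (61.4), gave the highest Fos, Junb, Egr1 and Phlda1 values. Of the mast cell markers, the 7 measured on all 6 arrays were all higher in DOX+ (median 2.17), and Fcer1a and Ms4a2 entered the test only through the DOX+ arrays. With Fcer1a and Ms4a2 included, the list had sums of 9.59 to 106 in DOX+ and 2.73 to 6.43 in DOX-. The highest of these sums was on DOX+ replicate 3, the lowest array for 5 of the 8 immediate early genes. The epithelial sum was 530 to 593 in DOX+ and 603 to 801 in DOX- (9 of 11 lower, median -0.27), without overlap. The neutrophil markers Cxcr2, Mpo and Ngp, the mast cell marker Tpsab1 and the epithelial marker Cldn4 were too dim to test.

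Endothelial markers were higher in 9 of 9 (median 0.55), with sums of 28.3 to 38.2 in DOX+ and 21.0 to 28.5 in DOX-. Of 6 B and plasma cell markers, 4 entered the test only through the DOX+ arrays. The 2 measured on all 6 arrays split, 1 higher and 1 lower. Sums over all 6 markers were 16.4 to 21.1 in DOX+ and 11.4 to 12.5 in DOX-. These sums hold the 4 markers let in through DOX+, so their separation is no support for a difference. Medians were 0.17 for fibroblast, 0.04 for macrophage, 0.12 for T cell, -0.22 for nerve and glia, -0.33 for hepatocyte and 0.23 for pancreatic acinar markers, each over the genes measured on all 6 arrays, and their sums overlapped between the groups. The position on the slide moved with the groups too: the 3 DOX+ arrays and DOX- replicate 1 lay in the first row and DOX- replicates 2 and 3 in the second. With the row as a block, which compares the groups through DOX- replicate 1 alone, the differences were -1.05 for Fos, -1.35 for Phlda1, -1.43 for Egr1 and -2.48 for Atf3. They were -0.54 for Junb, -0.68 for Jun, -0.97 for Egr2 and 0.40 for Fosb, and 0 genes of 20737 passed limma's adjusted p (1418 had an unadjusted p below 0.05).

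Other immediate early genes were split more evenly, though the difference between the lists was not tested. Of 49 tested, 29 had a lower mean and 20 a higher one (median -0.16); none passed limma's adjusted p, 5 (10.2%) were lower without overlap, near the 10.6% of all genes, and 0 higher. Without DOX- replicate 1 the split was 23 lower and 26 higher with a median of 0.01. The 5 that were apart were Zfp36l1, which codes for an RNA-decay factor (-0.75, SE 0.21), Nfil3, a zipper repressor (-0.70, SE 0.44), Plk2, a polo-like kinase (-0.61, SE 0.13), Gadd45a, a growth arrest gene (-0.58, SE 0.17), and Mcl1, an anti-apoptotic gene (-0.32, SE 0.16). Their limma adjusted p lay between 0.195 for Plk2 and 0.527 for Nfil3. Of the remaining FOS and JUN genes, Fosl2 had -0.31 (SE 0.18), with groups that overlapped, and Jund was close to even at 0.03 (SE 0.22), both chosen after their values were seen. Ccn1, a matrix protein gene also known as Cyr61 and likewise chosen after its values were seen, had the most negative difference of the 49, at -1.34 (SE 0.51), with DOX+ replicate 1 above DOX- replicate 2.

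**Figure D4:**
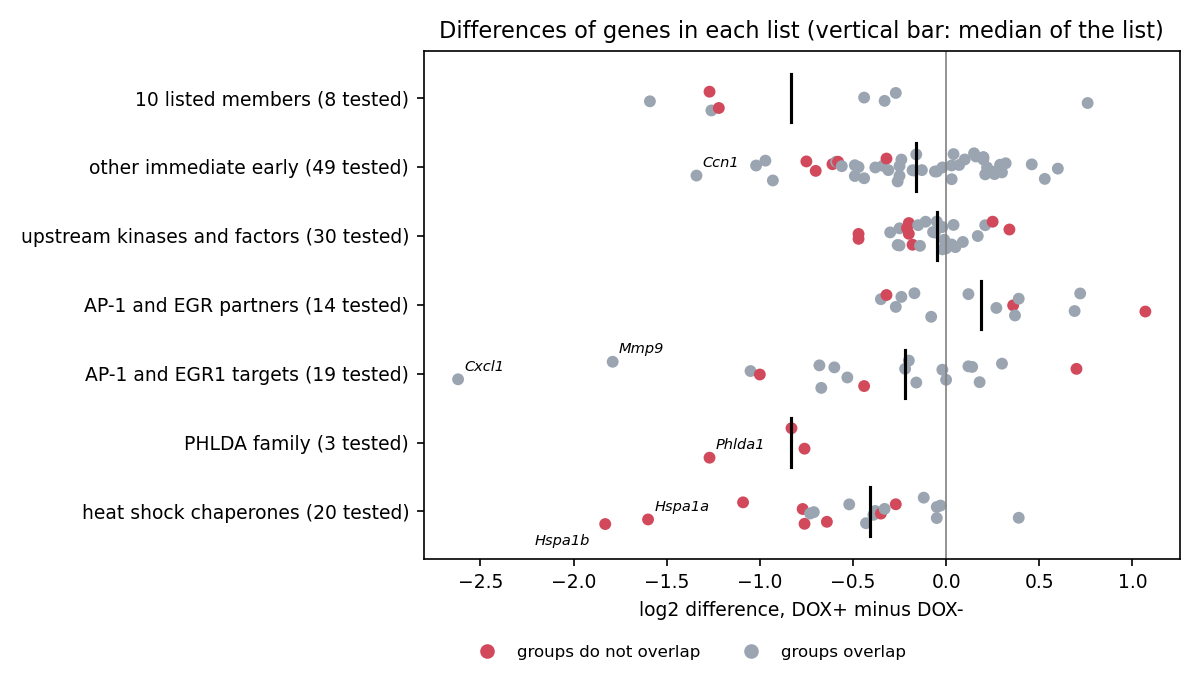
Differences of single genes, DOX+ minus DOX- on the log2 scale (x axis), for the 10 genes and 6 further lists, with a vertical bar at each list's median and red points where the 3 DOX+ and 3 DOX- arrays do not overlap. The 8 tested members have a median of -0.83, the other immediate early genes one of -0.16, and the kinases and factors upstream one of -0.05.

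Genes that carry the signal to the immediate early genes differed by little in size, from -0.47 to 0.34. Of 30 tested, 20 had a lower mean and 10 a higher one (median -0.05); 6 (20%) were lower and 2 (6.67%) higher without overlap, against 10.6% and 10.4% of all genes, and none passed limma's adjusted p. With the mean of all kept probes of a gene the split was 15 and 15. Among those apart were Nras, which codes for a small GTPase (-0.47, SE 0.14), and the nuclear kinase gene Rps6ka5 (0.34, SE 0.18). Such RNA levels do not measure the phosphorylation by which these kinases act.

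Partners and inhibitors of AP-1 and EGR factors had a median of 0.19 over 14 tested genes, 8 higher and 6 lower, and again none passed the limma test. Blocked on slide row, the split was 6 higher against 8 lower (median 0), and without DOX- replicate 3 the median was 0.04. Batf3, a zipper factor that pairs with JUN proteins, had 1.07 (SE 0.48), Atf7, an ATF2 relative, 0.36 (SE 0.13), and Tcf20, a co-regulator, -0.32 (SE 0.16), and for these 3 the groups were apart. That is 14.3% of the list higher and 7.14% lower without overlap, near the 10.4% and 10.6% of all genes.

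Among genes known as AP-1 or EGR1 targets, 13 of 19 tested had a lower mean and 6 a higher one (median -0.22), and none passed the limma test. Without overlap, 2 (10.5%) were lower and 1 (5.26%) higher, no more than the 10.6% and 10.4% of all genes. With 1 array left out, the median lay between -0.06, without DOX- replicate 1, and -0.63, without DOX- replicate 3, and from 11 (without DOX+ replicate 3) to 17 (without DOX+ replicate 1) were lower. Hbegf, an EGF receptor ligand induced by RAS and ERK signalling, read 0.48, 0.60 and 0.41 in DOX+ and 1.52, 1.36 and 1.61 in DOX-. Its replicates were tight and the groups far apart, with means of 0.49 and 1.49 (95% confidence interval of the difference -1.31 to -0.69; limma adjusted p = 0.13). Vegfa, the angiogenic growth factor gene, went the other way without overlap, at 0.70 (SE 0.18; limma adjusted p = 0.237), and Plaur, the urokinase receptor gene, had -0.44 (SE 0.20; limma adjusted p = 0.398). Cxcl1 and Mmp9, chosen after their values were seen, had differences of -2.62 (SE 1.05) and -1.79 (SE 0.83) with groups that overlapped. The 6 genes Mmp3, Mmp10, Mmp13, Il6, Areg and Lif were too dim to test.

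The PHLDA family was apart in all 3 of its genes, each lower in DOX+, while 10.6% of all genes were lower without overlap. Phlda3, a p53 target that restrains AKT, read 1.88, 1.77 and 1.81 in DOX+ and 2.73, 2.57 and 2.65 in DOX-, a difference of -0.83 (SE 0.12; limma adjusted p = 0.132). For Phlda2, an imprinted gene, it was -0.76 (SE 0.25; limma adjusted p = 0.301). None of the 3 passed the test, and all 3 kept their direction under each of the scalings and left-out arrays run.

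Heat shock chaperones, a stress-induced group outside the immediate early genes, were lower in 19 of 20 tested, with a median of -0.41. Of all genes, 51.2% had a lower mean. Against 10.6% of all genes, 8 of the 20 chaperones (40%) were lower without overlap. Of these, 1 passed limma's test: Hspa1b, an inducible HSP70 chaperone, read 1.16, 1.02 and 1.05 in DOX+ and 2.92, 2.99 and 2.81 in DOX-, and fell by 1.83 (SE 0.12; limma adjusted p = 0.0246). No chaperone passed that test with quantile normalization, in the authors' processed values, with no filter on dim probes, with either block, or without DOX+ replicate 2, DOX- replicate 1 or DOX- replicate 2. Its near-identical neighbour Hspa1a had -1.60 (SE 0.18; limma adjusted p = 0.0943), and which copy gave either signal is uncertain. The other HSP70 genes Hspa5, Hspa4l and Hspa8 had -0.71 (SE 0.28), -0.39 (SE 0.23) and -0.38 (SE 0.22), and Hsph1, a co-chaperone of HSP70, had -1.09 (SE 0.35). The chaperones were highest in sum on DOX- replicate 3, the lowest DOX- array for the immediate early genes, at 474 against 366 and 395 on DOX- replicates 1 and 2 and 276 to 316 in DOX+.

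The genes nearest to Fos over the 6 arrays, by the root mean square difference of profiles centred on their means, were not members. They were Tmprss7, a membrane protease gene (0.24), Gabrd, a GABA receptor subunit gene (0.32), H2ap, a histone gene (0.35), and a pair of transcripts without a gene name (0.26 and 0.34). Among the members, Phlda1 was the nearest, at place 18 of all genes (0.41), and Egr1 was at place 37 (0.45), while Atf3 was at place 11981. Nearest to Phlda1 were Slco1a6, an organic anion transporter gene (0.15), Myo7a, a myosin gene (0.15), Fam111a (0.15), Cxcl16, a chemokine gene (0.17), and Sfn, which codes for 14-3-3 sigma (0.18). These measures describe 6 arrays in 2 groups, in which any gene with a similar difference lies near.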

How the data were processed

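The scanner files hold spot intensity, deposited by the authors as the output of Feature Extraction, Agilent's scanner software (10.7.1.1 in the file headers, 9.5.1.1 in the submitters' processing notes), which subtracted background, with 0 or 1 flags for spots well above background. Levels are log2 ratios of intensity to the 75th percentile of its array. Of all non-control spots, 50 to 64 per array flagged as outliers were left out. A probe was kept if a whole group, DOX+ or DOX-, had it well above background (31720 of 56605), and the probe with the highest mean stood for each gene. The test was limma's moderated one (version 3.58.1, R 4.3.3; group alone in the model, two-sided, Benjamini-Hochberg over 20737 genes, threshold 0.05), which was tested on simulated data. A table of the authors' processed intensity served as an alternative. Probe positions are those of the files (mm9), and promoters are RefSeq's (GRCm38.p6).

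The members and the gene lists were chosen with earlier results of these data known. Named are all members. Of the other immediate early genes, up to 6, and of each further list up to 3, with the largest differences among those whose groups did not overlap, are named, with the HSP70 genes and the 5 nearest profiles. The rule also took the first 2 genes of each marker list, which are printed for the epithelial and neutrophil lists only. A gene that the rule names is not reported here. The labels do not tie samples to separate animals beyond the stated number of mice, so p-values reflect only how these samples vary. The 3 arrays per group limit the precision.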

Additional observations from a re-analysis of the deposited data

How the results depend on the processing

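No member passed limma's adjusted p under any of the 15 alternatives, and 6 or 7 of the 8 tested were lower in DOX+ under each (9 of 10 genes with no filter on dim probes, and 7 of 9 probes with every probe tested). The only member whose difference changed sign was Jun, which ranged from -0.56 to 0.21 with 1 array left out and was 0.21 without DOX+ replicate 3; the cause was not tested. Members whose groups did not overlap numbered 1 with quantile normalization and 1 in the authors' processed values (Phlda1 in both), 4 with the array median as the scale, and 2 to 6 when 1 array was left out, while 20%, 19.9%, 18.6% and 25.1% to 37.4% of all genes were apart under these. With normexp the 2 apart were Phlda1 and Fosb, the latter higher in DOX+ at 0.36. That median scale shifted the median of all genes to -0.11 and put 64.9% of genes lower. The median member difference was -1.19 to -0.51 with 1 array left out and -0.44 over 9 probes with every probe tested. Genes past the test, 8 as reported, numbered 2 with quantile normalization, 5 with the array median, 2 in the authors' values, 1 with no filter (37008 genes tested), 19 with every probe tested, 0 when blocked on slide row and 0 to 30 with 1 array left out. With the replicate number as a block (replicate block) 0 genes passed (2255 with an unadjusted p below 0.05). Over all genes, arrays of the same number did not deviate together (correlations of -0.087, -0.131 and -0.02). Among the members, this block lowered the SE from 0.42 to 0.14 for Fos, 0.67 to 0.27 for Egr1 and 0.71 to 0.26 for Atf3. The SE also fell from 0.47 to 0.19 for Jun, 0.57 to 0.3 for Egr2 and 0.19 to 0.18 for Phlda1. It rose from 0.43 to 0.53 for Fosb and 0.22 to 0.25 for Junb. An unadjusted limma p below 0.05 was then reached by 4 of 8 members, against 2 without the block. Whether the numbers pair the samples was therefore not settled. Signal over background limited Fosl1 and Egr3.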
